A study of Caenorhabditis elegans with 95 samples.

Results

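The eggshell genes of *Caenorhabditis elegans* examined here are *chs-1*, *cpg-1*, *cpg-2*, *cbd-1*, *perm-2*, *perm-4*, *egg-1*, *egg-2* and *egg-3*. They were taken as all probe sets of the Affymetrix *C. elegans* Genome Array whose platform annotation carries 1 of these symbols alone, which gives 16 probe sets for 9 genes, where 20766 of the 22548 probe sets in all carry 1 symbol, for 17118 genes. The eggshell is built in layers within minutes of fertilization, in part from material that the oocyte has already packed into cortical granules. CHS-1 is the chitin synthase of the middle layer. EGG-3, a protein related to tyrosine phosphatases, holds CHS-1 at the cortex of the oocyte, and EGG-1 and EGG-2 are LDL-receptor-repeat proteins of the oocyte surface that are needed for sperm entry and for activation of the egg. CPG-1 and CPG-2 are chitin-binding chondroitin proteoglycans of the inner layer. CBD-1, a chitin-binding protein, anchors the outer vitelline layer, to which PERM-2 and PERM-4 also belong. The messages of these genes are made in the germ line, mainly in growing oocytes, before any shell exists.

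Wild-type Bristol N2 hermaphrodites were entrained from larval life to 1 of 2 cycles and moved at the L4 stage to plates with 25 µM FUDR, an inhibitor of DNA synthesis that was used to prevent progeny. FUDR was thus present in every group. The LD group had 12 h of light (about 500 to 1000 lux) and 12 h of darkness at 18°C, and the DD group was the day of constant darkness that followed. The WC group had 12 h at 25°C and 12 h at 15°C in constant darkness, and the CC group was the following day at constant 15°C, while non-entrained controls for the light experiment were kept in complete darkness. Whole adults were collected every 4 h from hour 2 to hour 22 of a day, in 3 time series for LD, 3 for DD, 5 for WC, 3 for CC and 2 for the controls, which makes 95 arrays. Hours 2 to 10 are the light or warm hours, or their subjective counterparts. Of the arrays, 5 stand for 2 biological replicates each by their labels. Populations in separate incubators were kept on opposing cycles, so that early and late hours of a day may come from different animals, which the labels do not state and no fit could model. Because whole animals were used, fewer oocytes per animal and less RNA per oocyte cannot be told apart in any value below.

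The deposited values are scores: log2 expression relative to the mean of a time series, with each array then set to mean 0 and variance 1. A score of 1 lies 1 array SD above the series mean, and neither absolute expression nor fold change can be had from it. In the half-day differences of all probe sets, WC series 2 stood apart from the other WC series (r = -0.07 over 17342 probe sets, against 0.17 to 0.49 for the others). The 2 control series opposed each other (r = -0.37), and the control array of series 4 at hour 18 had a relative spread of 1.95, the largest found. The calls for the WC half-days are given with and without WC series 2. All other fitted values from the half-days, the 24-h test and the contrasts of WC with CC and LD include it. Leaving out that control array changed no count of eggshell genes called, which stayed at 0 in the 4 comparisons that use the controls. All 16 eggshell probe sets passed the filter on flat values, those close to the floor score of an array, in every fit. Each gene is represented below by 1 probe set. It is the one whose ID marks it as specific (ending in _at, without _s or _x) where there is one.

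The eggshell genes were quiet. Within a series, the SD of their scores over hours was 0.24 for *cpg-2*, 0.29 for *cpg-1* and *cbd-1*, 0.37 for *egg-1*, 0.39 for *egg-3*, 0.42 for *egg-2* and 0.46 for *chs-1*. The corresponding SD over the 14432 probe sets that passed the floor filter in all 5 conditions had a median of 0.83. Of these, 10% lay under 0.41, as did 13 of the 16 eggshell probe sets. The filter drops probe sets whose scores hardly move, so the steadiest of the 22548 are missing from this background. *perm-2* was the steadiest member, with an SD of 0.20. Above 0.41 lay *egg-2*, *chs-1* and the representative probe set of *perm-4*. The last was the widest, with an SD of 0.73, against 0.22 to 0.28 for the other 3 *perm-4* probe sets.

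**Figure D1:**
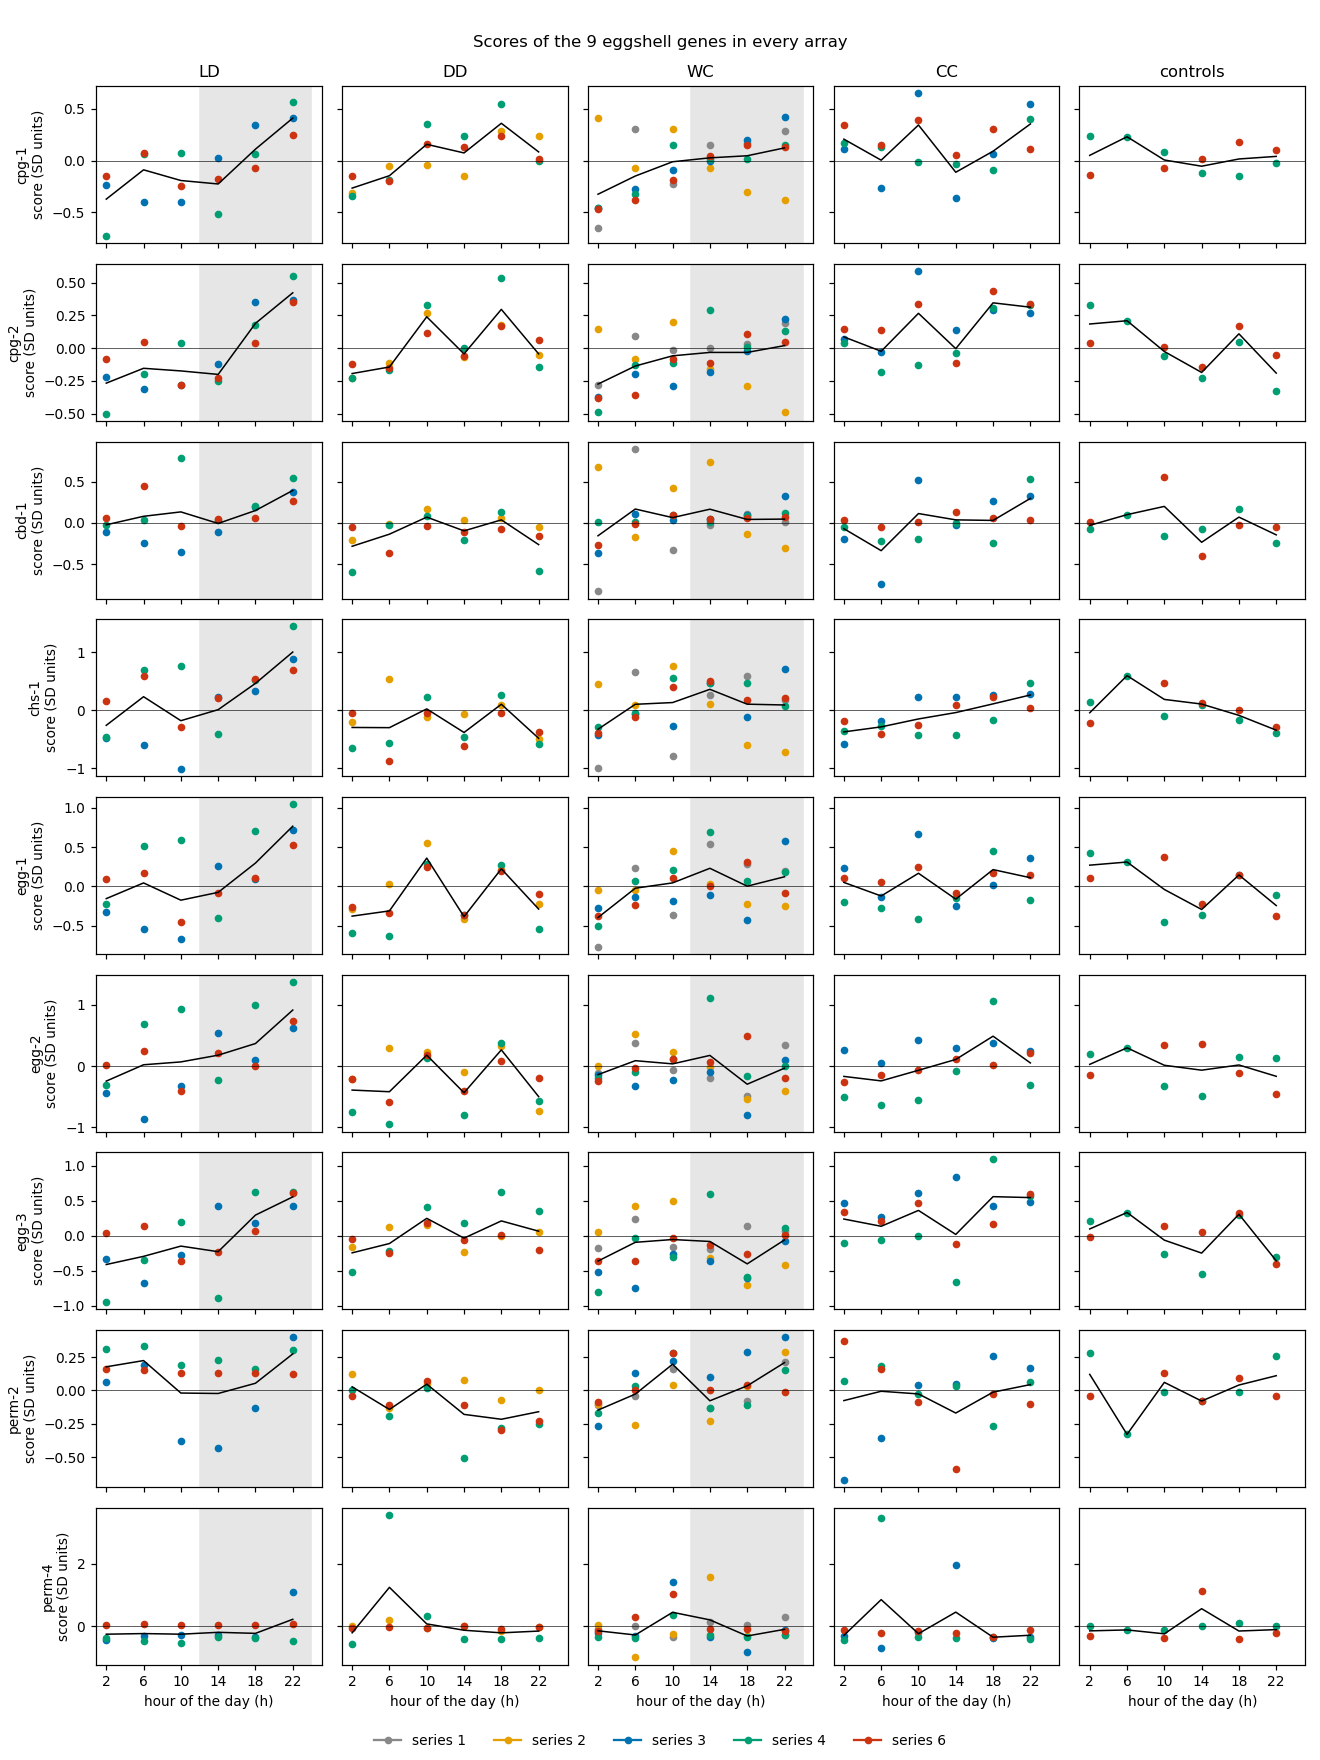
Scores (array SD units) of the 9 eggshell genes by hour of the day in the 5 conditions, 1 representative probe set a gene. Each point is 1 array, colour marks the time series, black lines join the means of each hour, and grey marks dark or cold hours. Most points lie within 1 unit of 0, the hour-22 values of *chs-1* in LD lie between 0.69 and 1.45, and the *perm-4* probe set is flat apart from single arrays such as 3.57 and 3.48.

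Although small, these movements were shared. With scores centred within each condition and series, the 21 pairs among *cpg-1*, *cpg-2*, *cbd-1*, *chs-1*, *egg-1*, *egg-2* and *egg-3* correlated with a median r of 0.69 over the 95 arrays. The tightest pairs were the proteoglycan genes *cpg-1* and *cpg-2* (r = 0.81) and *cpg-2* with the surface receptor gene *egg-1* (r = 0.81). *egg-1* and *egg-2*, which are close paralogs and may share probe binding, correlated at 0.76, and *egg-2* with the unrelated *egg-3* at 0.75. The loosest pair was *cbd-1* with *egg-2* (r = 0.34). These 95 points share series, incubators and array standardization, so r is given as a description.

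The vitelline-layer genes *perm-2* and *perm-4* stood largely outside this block of 7 genes. They are immediate neighbours on chromosome IV in the WBcel235 annotation, with no gene starting between them. Leaving out the representative probe set of *perm-4*, their probe sets correlated with each other at 0.54 to 0.75 in 6 pairs, but with those of the 7 other genes at -0.11 to 0.57, with a median of 0.28 over 50 pairs. The representative *perm-2* probe set correlated at only -0.11 with *egg-2*, -0.05 with *egg-3* and 0.18 with *cbd-1*. Of the 4 *perm-4* probe sets, the 3 with _s or _x in their IDs correlated with one another at 0.85 to 0.91, whereas the representative one correlated with them at 0.22 to 0.26. It showed isolated high arrays, at 3.57 in DD series 4 and 3.48 in CC series 4 (both at hour 6), 1.95 in CC series 3 at hour 14 and 1.59 in WC series 2 at hour 14, and its values for *perm-4* should be read with the other 3 beside them. Where a gene had 2 probe sets, they moved together, with r of 0.88 for *cpg-1*, 0.87 for *cpg-2*, 0.84 for *perm-2* and 0.69 for *cbd-1*.

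**Figure D2:**
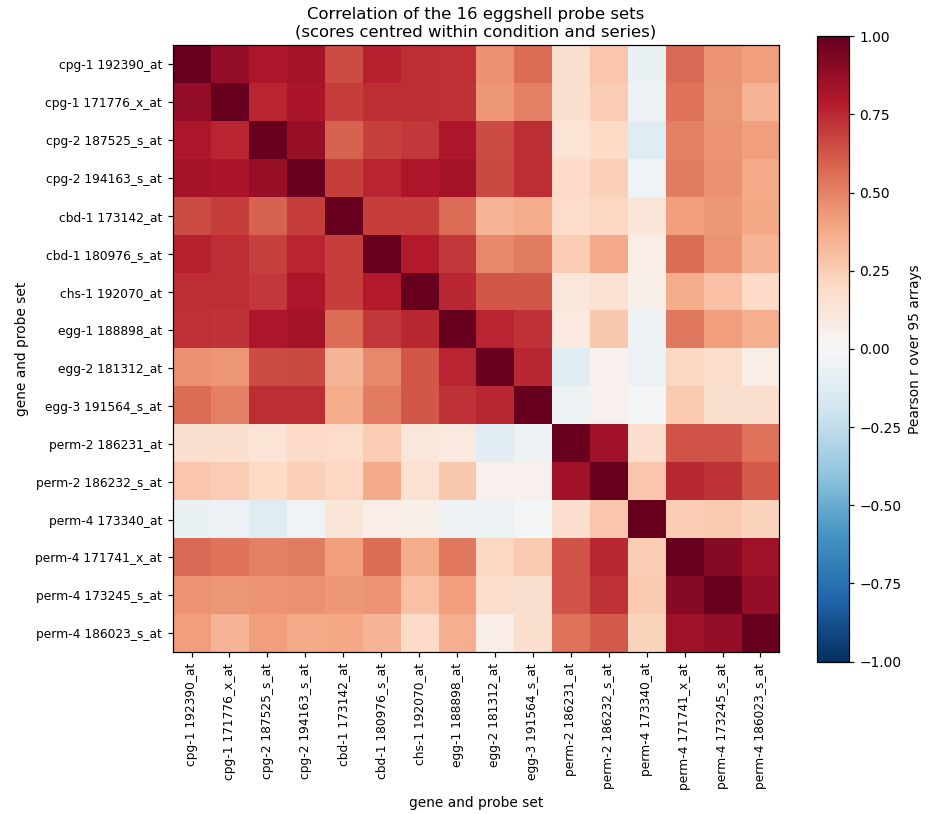
Pearson correlation of the 16 eggshell probe sets over 95 arrays, with scores centred within condition and time series. Rows and columns are gene and probe set, and colour runs from -1 (blue) to 1 (red). The 7 genes from *cpg-1* to *egg-3* form 1 block (representative pairs 0.34 to 0.81), *perm-2* and *perm-4* form another, and the representative *perm-4* probe set stands alone.

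Across the array, the 10 genes whose profiles were most like the mean of the 9 members included 3 of the oocyte list, *rme-2*, *puf-11* and *puf-3*. The closest was *rme-2*, the yolk receptor of oocytes (r = 0.85), followed by *ptr-2*, a patched-related gene (0.85), and *gfat-2*, which encodes a glutamine-fructose 6-phosphate aminotransferase, the enzyme that starts synthesis of the chitin precursor (0.83). The RNA-binding protein gene *puf-11* (0.83), the glutamine synthetase gene *gln-5* (0.81), R02F2.4 (0.81), the meiotic spindle gene *mesp-1* (0.79), *puf-3* (0.79), the ABC transporter gene *mrp-4* (0.79) and T24D1.3 (0.79) completed the first 10. Over 14432 probe sets the median r was 0.02, and 0.5% exceeded 0.68. Of the lists compared, the mean of 8 oocyte genes followed the eggshell mean at r = 0.82 (0.97 over the LD arrays alone, 0.72 for DD, 0.82 for WC, 0.58 for CC, 0.71 for controls). The means of 10 germ line genes (0.65), 9 genes of the lipid permeability barrier (0.61) and 9 of chondroitin synthesis (0.57) followed it less closely over all arrays. In CC, however, the barrier list (0.70) was above the oocyte list. Lower still were 4 other chondroitin proteoglycan genes (0.43), the 4 genes of chitin precursor supply (0.39), *gfat-2* among them, and 2 of egg activation (0.27). Over the 95 arrays, the lists of sperm (-0.09), yolk (0.00), zygotic embryo (0.09), body wall muscle (-0.17) and cuticle genes (-0.19) lay nearer to 0. Over the LD arrays alone, sperm reached 0.50, embryo 0.39, muscle -0.45 and cuticle -0.48. With the mean of *perm-2* and a non-representative *perm-4* probe set the oocyte list correlated at 0.39.

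The first comparison asked whether the eggshell genes differed between light and dark hours of the LD day. Of the 9 genes, 8 had lower mean scores in the light, but none passed the test (limma, adjusted p under 0.05), where 15.8% of all probe sets did (8.84% upward, the rest downward). The median difference was -0.33, against -0.07 over all probe sets. *chs-1* ran from -1.01 to 0.77 in the 9 light arrays, with a median of -0.29, and from -0.41 to 1.45 in the 9 dark arrays, with a median of 0.52. Its light and dark values thus overlapped widely, and the difference was -0.56 ± 0.26 (SE; 95% interval -1.11 to -0.01, adjusted p = 0.144).

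Of the other genes of the block, 5 leaned the same way, and the representative probe set of *cbd-1* did so in only 1 series. Its other probe set was below 0 in all 3 series (-0.72, -0.30 and -0.25). *egg-2* had medians of -0.31 in the light and 0.54 in the dark, a difference of -0.54 ± 0.23 (adjusted p = 0.117). *egg-3* had medians of -0.33 and 0.43 and differed by -0.49 ± 0.22 (adjusted p = 0.128). *egg-1* differed by -0.42 ± 0.21 (adjusted p = 0.162), so that all 3 *egg* genes leaned toward the dark by about the same amount. For the proteoglycan genes, the differences were -0.33 ± 0.13 for *cpg-2* (adjusted p = 0.0914, the lowest of the 9) and -0.32 ± 0.16 for *cpg-1* (adjusted p = 0.173). In *cpg-2*, light values from -0.50 to 0.05 and dark values from -0.25 to 0.55 overlapped less than in *chs-1*. *cbd-1* differed by -0.12 ± 0.14 with its representative probe set and by -0.42 ± 0.17 with its other one (adjusted p = 0.542 and 0.102). *perm-2* was level, at 0.03 ± 0.11 (95% interval -0.21 to 0.26), and the 4 *perm-4* probe sets lay between -0.18 and -0.07.

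The leaning toward the dark was not of one size in the 3 LD series. The half-day difference of *chs-1* was -1.17 in series 3, -0.18 in series 4 and -0.33 in series 6, and that of *egg-1* was -0.87, -0.16 and -0.24. The median over the 9 genes was -0.60 in series 3, -0.18 in series 4 and -0.16 in series 6, and 6 genes were below 0 in all 3 series. Without series 4, *chs-1* (-0.75, adjusted p = 0.0468) and *egg-2* (-0.67, adjusted p = 0.0446) passed the test, beside 17.2% of all probe sets in that fit. Of 22 genes that supply or accompany the eggshell proteins, 5 passed the test in LD, beside the 15.8% of the array, and their difference from the eggshell genes was not tested. Lower in the light were *gna-2*, which supplies the chitin precursor (-0.61, adjusted p = 0.0459, 1 of 4 genes of that list), *sqv-3* (-0.68) and *sqv-1* (-0.91), which build the chondroitin chains (2 of 9), and the cytochrome P450 genes *cyp-31A3* (-0.80) and *cyp-31A2* (-0.61) of the lipid barrier under the shell (2 of 9). Among 4 further chondroitin proteoglycan genes only *cpg-9* passed, in the opposite direction (1.47, adjusted p = 0.0423). The 8 oocyte genes had a median of -0.43, and none of them passed. Of 10 germ line genes (median -0.37), 2 were called lower in the light. Of other tissues, 4 of 5 body wall muscle and 3 of 5 cuticle genes were called higher in the light. Called lower were 4 of 8 zygotic embryo and 1 of 4 sperm genes. The mean score of the embryo list was -1.53 to -0.73 in the light hours of the 3 series and -0.38 to 0.76 in the dark hours, and that of the muscle list 0.53 to 1.24 and -0.54 to -0.32. Their part in the eggshell values was not tested.

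**Figure D3:**
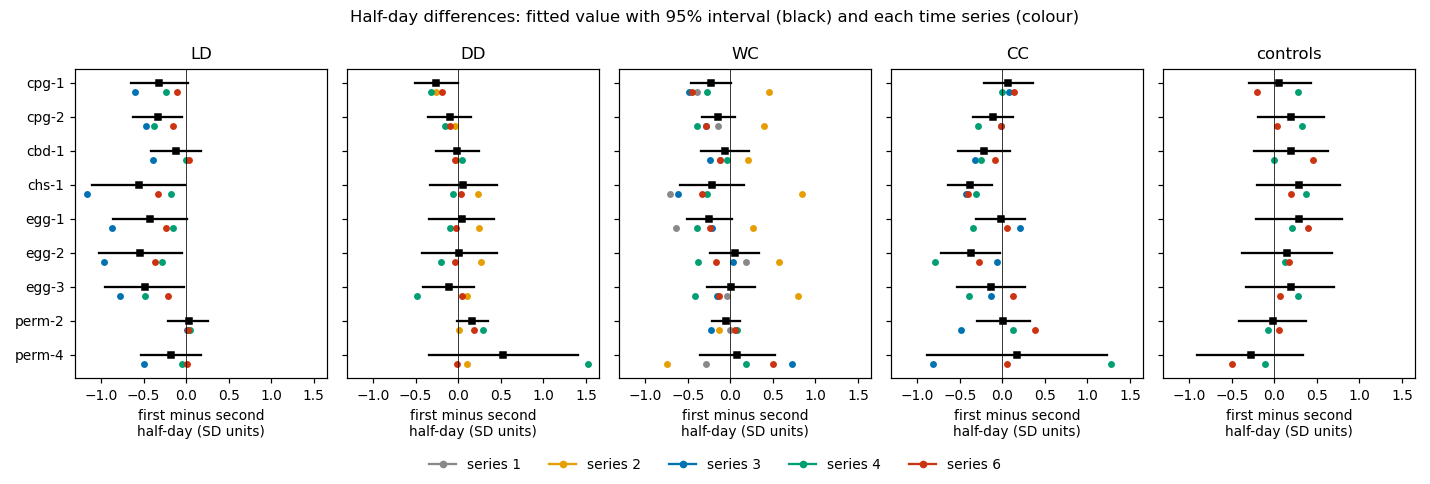
Difference between the first half-day (hours 2 to 10) and the second (hours 14 to 22) for each eggshell gene in the 5 conditions, in array SD units. Black squares and lines are fitted values with 95% intervals, and coloured points are single time series. In LD the block of 7 genes lies left of 0 (for example -0.56 for *chs-1*), and in WC series 2 lies to the right of the other series for those 7 genes.

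Much of the LD pattern came from the end of the night. At hour 22, *chs-1* scored 0.88, 1.45 and 0.69 in series 3, 4 and 6, above every other hour of the same series. *egg-1* scored 0.72, 1.05 and 0.53 and *egg-2* 0.63, 1.38 and 0.74, again the highest hour of each series. *cpg-1* (0.41, 0.57 and 0.25) and *cpg-2* (0.37, 0.55 and 0.35) did the same. These 5 of the 9 genes peaked at hour 22 in all 3 series, as did 2.36% of the 15989 probe sets fitted. The lowest hour differed between series: 8 of 9 genes were lowest at hour 10 in series 6, but 6 of 9 at hour 2 in series 4. At hour 22 the mean of the 7-gene block was 0.55, 0.88 and 0.49. In the controls, the same hour gave -0.18 and -0.22, and in DD it gave -0.18, -0.30 and -0.14. It was above 0 in every CC series (0.36, 0.26 and 0.21) and in 4 of 5 WC series (0.18, -0.42, 0.33, 0.11 and 0.02). Where both days of a series were centred together, 0 is not the mean of 1 day, so these signs also carry the level of the day. Hour 22 was the highest hour of the block in WC series 3 and in CC series 6 (0.21, against 0.20 at hour 18). In the other WC and CC series another hour was higher. The hour-22 arrays of LD had relative spreads of 1.44, 0.74 and 1.02 in series 3, 4 and 6, whose part in these scores was not tested. The hour was singled out after its values were seen, and no test is attached to it.

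**Figure D4:**
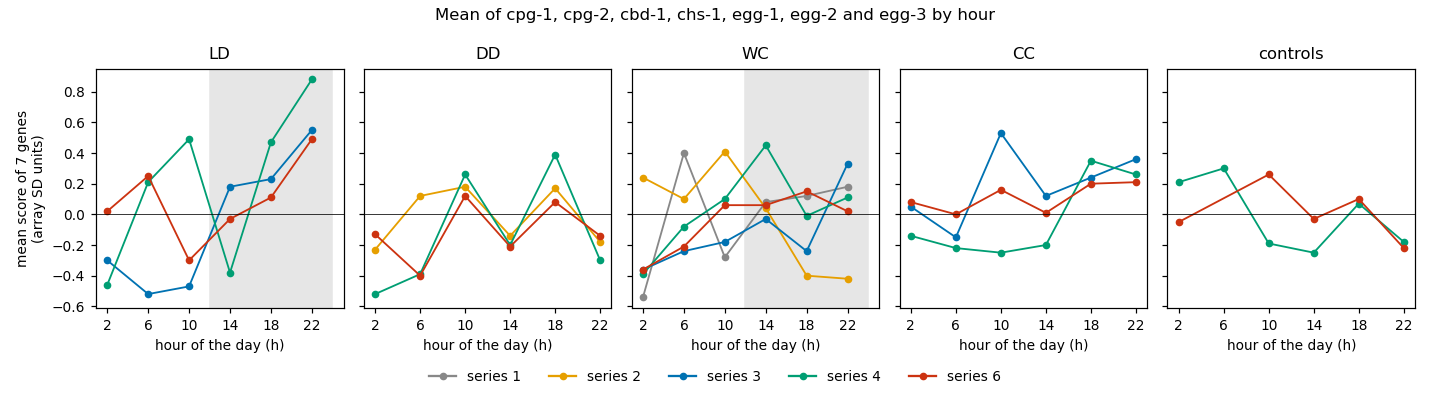
Mean score (array SD units) of *cpg-1*, *cpg-2*, *cbd-1*, *chs-1*, *egg-1*, *egg-2* and *egg-3* by hour of the day, 1 line per time series, in the 5 conditions, with dark or cold hours in grey. In LD all 3 series are highest at hour 22 (0.49 to 0.88). In WC, series 1, 3, 4 and 6 are lowest at hour 2 (-0.54 to -0.36) and series 2 is not (0.24).

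A 24-h cosine and sine fitted to the LD day reached no call for any eggshell gene, where 1.00% of probe sets were called. Amplitudes (peak to mean) were 0.10 to 0.41, with a median of 0.27 against 0.39 over all probe sets. Fitted peaks of the 7-gene block fell late in the day, at 19.36 h for *egg-2*, 19.56 h for *egg-3*, 20.28 h for *cpg-2*, 20.31 h for *cpg-1*, 20.64 h for *chs-1*, 20.95 h for *egg-1* and 21.00 h for *cbd-1*. *perm-2* had its fitted peak at 1.10 h. The lowest adjusted p was 0.149, for *cpg-2*.

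In DD, where the animals had been entrained to light and then kept in darkness, the leaning toward the dark hours was weak. The LD series were 3, 4 and 6 and the DD series 2, 4 and 6. The median over the 9 genes was 0.10 in DD series 2, -0.10 in series 4 and -0.03 in series 6. In these series 3, 6 and 6 genes were below 0. The half-day differences ran from -0.26 (*cpg-1*) to 0.53 (*perm-4*), with 4 genes below 0 and a median of 0.01. None passed, where 0.0122% of probe sets were called (2558 of 16406 at an unadjusted p under 0.05). *cpg-1* kept a negative sign in all 3 DD series (-0.26, -0.32 and -0.19), with an adjusted p of 0.314. The *perm-4* value rests on the array at 3.57: its 3 series gave 0.10, 1.52 and -0.02. In the 24-h test no eggshell gene and 0.00% of probe sets were called (2205 of 16406 at an unadjusted p under 0.05, with 1 of the 9 genes, *cpg-1*, among them). Across the hours of DD the block of 7 genes was instead higher at hours 10 and 18 than at hours 2 and 14 in every series. For *egg-1* hour 10 gave 0.55, 0.28 and 0.25 and hour 18 gave 0.21, 0.27 and 0.19, whereas hour 14 between them gave -0.42, -0.37 and -0.37. *egg-2* fell in the same way to -0.10, -0.80 and -0.40 at hour 14. These hours were chosen by eye, and no test was run on them.

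Only series 4 and 6 are common to LD and DD, and LD series 3 and DD series 2 have no counterpart. The difference between the LD and DD half-day contrasts was below 0 for all 9 genes (median -0.38), and passed for none (0.00598% of probe sets called). It was -0.62 ± 0.32 for *chs-1* (95% interval -1.28 to 0.03) and -0.06 ± 0.19 for *cpg-1*. Against the non-entrained controls, the LD contrast was lower for 7 genes, by most in *chs-1* (-0.85 ± 0.37, adjusted p = 0.285) and *egg-1* (-0.72 ± 0.31, adjusted p = 0.281). In that comparison 3 of the 9 genes and 2644 of 17095 probe sets had an unadjusted p under 0.05, and 0.00% were called. The comparison of DD with the controls called 0.00% (1228 of 17453 at an unadjusted p under 0.05) and none of the 9 genes. In the controls themselves, 7 genes were higher in hours 2 to 10, with a median of 0.19, none passed, and 0.00% of probe sets were called (365 of 16579 at an unadjusted p under 0.05). With 11 arrays in 2 opposed series, the controls leave wide intervals, -0.20 to 0.77 for *chs-1* and -0.21 to 0.79 for *egg-1*.

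The temperature cycle raised the same question for warm and cold hours. In WC, 6 of the 9 genes had lower scores in the warm hours, by a median of -0.06, and none passed, where 2.54% of probe sets did (1.44% upward and 1.10% downward). *cpg-1* had medians of -0.23 in 15 warm arrays and 0.13 in 15 cold arrays, and differed by -0.23 ± 0.11 (95% interval -0.46 to 0.01, adjusted p = 0.338). *egg-1* differed by -0.25 ± 0.13 (adjusted p = 0.37) and *chs-1* by -0.21 ± 0.18 (adjusted p = 0.608). *cpg-2* differed by -0.14 ± 0.09. For *egg-2* (0.05 ± 0.14), *egg-3* (0.01 ± 0.14), *cbd-1* (-0.06 ± 0.14) and *perm-2* (-0.05 ± 0.08) the values were close to 0.

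WC series 2 decided these values. The half-day difference of *cpg-1* was -0.39, -0.48, -0.27 and -0.45 in series 1, 3, 4 and 6, and 0.46 in series 2. That of *cpg-2* was -0.14, -0.29, -0.39 and -0.29 in the same 4 series, and 0.40 in series 2, and *chs-1* showed -0.71, -0.61, -0.27 and -0.33 against 0.84. Without series 2, *cpg-1* (-0.40, adjusted p = 0.0161) and *cpg-2* (-0.28, adjusted p = 0.0288) were lower in the warm hours, in a fit that called 9.92% of all probe sets (6.22% downward). Series 2 is the series that also stood apart over all probe sets and whose centring could not be traced.

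Most of the warm-hour deficit lay at hour 2, the first collection after the shift to 25°C. At that hour *cpg-1* scored -0.65, -0.46, -0.46 and -0.47 in series 1, 3, 4 and 6, and *cpg-2* -0.28, -0.37, -0.49 and -0.38. *egg-1* scored -0.77, -0.28, -0.51 and -0.38, and *chs-1* -0.99, -0.42, -0.28 and -0.39. In each of these series hour 2 was the lowest hour for 5 or more of the 9 genes (5, 5, 8 and 9), while in series 2 it was the lowest for 0. *cpg-1*, *cpg-2*, *cbd-1* and *chs-1* were lowest at hour 2 in 4 of the 5 series, as were 1.69% of 17342 probe sets. On the CC day no eggshell gene was lowest at hour 2 in 2 or more of the 3 series, as were only 6.60% of 16470 probe sets. On the DD day, at a constant temperature, *cpg-1*, *cpg-2* and *cbd-1* were lowest at hour 2 in series 2 and 4 (2 or more series in 11.4% of 16406 probe sets), and the 7-gene mean at that hour was -0.23, -0.52 and -0.13. The part of the temperature shift in the hour-2 values of WC was not tested. The hour-2 arrays of series 3 and 6 also had wide relative spreads, 1.65 and 1.66, whose part in these values was not tested. This hour, too, was picked after its values were seen.

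The 24-h test called no eggshell gene in WC, where 6.29% of probe sets were called. Without series 2 it again called 0 of the 9 genes, beside 9.80% of probe sets. Amplitudes were 0.04 (*perm-2*) to 0.26 (*perm-4*), with a median of 0.14 against 0.29 over all probe sets. Fitted peaks of the block of 7 were spread from 9.45 h (*egg-2*) to 16.44 h (*cpg-1*). Of the proteoglycan genes compared beside the members, *cpg-4* was called, with an amplitude of 1.51 and a peak at 12.90 h (adjusted p = 0.00904). On the CC day no half-day difference passed (0.474% of probe sets called). *chs-1* came nearest, at -0.38 ± 0.12 (adjusted p = 0.145), and was lower in the subjective warm hours by -0.43, -0.31 and -0.40 in the 3 series. *egg-2* followed at -0.37 ± 0.16, with -0.06, -0.79 and -0.27. The 24-h test in CC called none of the 9 (0.0121% of probe sets). The difference between the WC and CC contrasts passed for none of the 9 (4.06% of probe sets called, 1.56% upward and 2.49% downward), with a median difference of -0.03, nor did that between LD and WC (4.26%, of which 3.39% upward), where *egg-2* showed the largest value, -0.59 ± 0.26 (adjusted p = 0.20). In the controls the 24-h test called 0.00% (372 of 16579 at an unadjusted p under 0.05) and no eggshell gene.

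The level of a whole day could be compared only where both days had been centred together, that is for LD and DD of series 4 and 6 and for WC and CC of series 3, 4 and 6. Animals on the free-running day were also a day older, which cannot be told apart from the change of condition. The 9 genes parted in these comparisons. On the DD day, 5 genes were lower than on the LD day before it, namely *chs-1*, *egg-1*, *egg-2*, *cbd-1* and *perm-2*, where 47.7% of all probe sets were called (21.3% upward and 26.4% downward). A call in this comparison therefore sets a gene little apart from the array. *chs-1* fell from day means of 0.43 and 0.32 in series 4 and 6 to -0.29 and -0.33, by -0.69 ± 0.19 (adjusted p = 0.00589). *egg-2* fell from 0.58 and 0.14 to -0.43 and -0.19, by -0.67 ± 0.19 (adjusted p = 0.00886), and *egg-1* from 0.37 and 0.06 to -0.26 and -0.11, by -0.40 ± 0.16 (adjusted p = 0.0464). *cbd-1* fell by -0.37 ± 0.11 (adjusted p = 0.0122), though its second probe set gave -0.12 ± 0.13 (adjusted p = 0.439). *perm-2* had the most precise difference of all, with 0.25 and 0.13 on the LD day and -0.20 and -0.12 on the DD day, -0.36 ± 0.07 (adjusted p = 0.000561), and its second probe set gave -0.38 ± 0.08.

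The proteoglycan genes and *egg-3* gave no such fall. *cpg-1* differed by 0.14 ± 0.12 (95% interval -0.11 to 0.38), *cpg-2* by 0.06 ± 0.10 (-0.16 to 0.27) and *egg-3* by 0.08 ± 0.16 (-0.26 to 0.42). For *perm-4*, 1 of the 4 probe sets fell, by -0.37 ± 0.12 (adjusted p = 0.0145), the other 2 with _s or _x in their IDs gave -0.19 and -0.21 without passing, and the representative one gave 0.34 ± 0.32. With 1 series alone the calls were fewer: 0 of 9 genes passed in series 6 and 2 of 9 in series 4, and the differences of *chs-1* were -0.72 in series 4 and -0.65 in series 6. Each of these fits held only 12 arrays, so their counts cannot be set against those of the full fit. The genes of the lipid barrier fell in 5 of 9 cases, led by *let-767* (-1.03) and *perm-1* (-0.97), and those of chondroitin synthesis in 4 of 9, led by *sqv-7* (-1.25). Of 8 oocyte genes, *cav-1* (1.19) and *oma-1* (0.91) rose and *puf-11* (-0.56) fell. Among germ line genes 5 of 10 fell, led by *him-3* (-1.02), *glh-1* (-1.15) and *htp-1* (-0.65), and *syp-1* rose (0.89). Of zygotic embryo genes 4 of 8 rose, among them *tbx-37* (10.71) and *vet-6* (1.99), and *end-1* fell (-1.50). Genes of muscle fell in 3 of 5 cases, of yolk in 2 of 2 and of sperm in 2 of 4. The mean score of the germ line list ran from -0.04 to 0.26 over the LD days and from -0.19 to -0.03 over the DD days, and its part in the eggshell values was not tested.

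**Figure D5:**
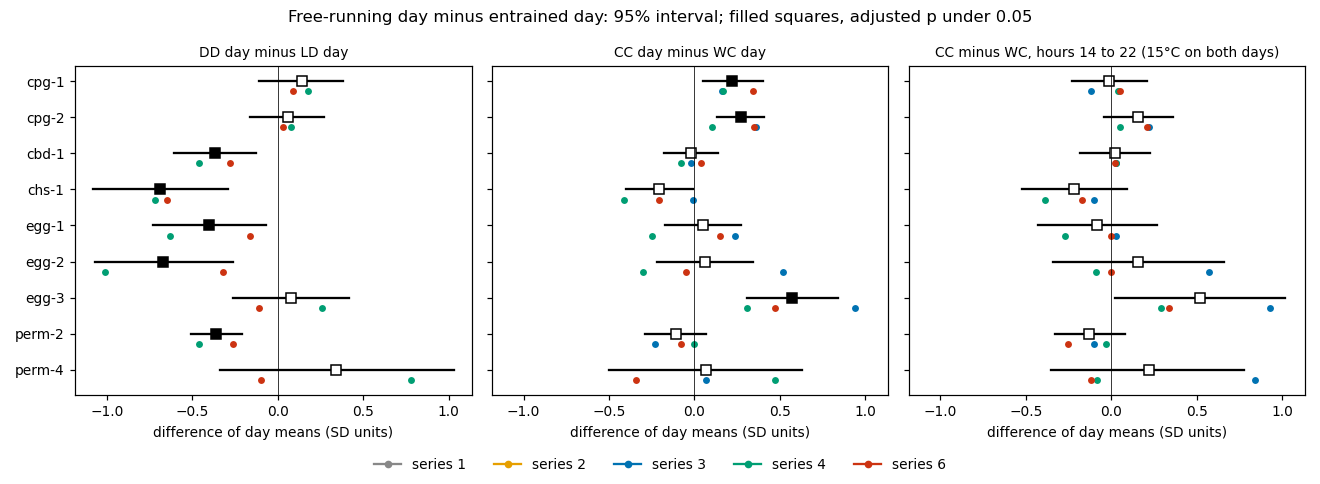
Free-running day minus entrained day for each eggshell gene, in array SD units: DD minus LD (series 4 and 6), CC minus WC (series 3, 4 and 6), and CC minus WC at hours 14 to 22, when both days were at 15°C. Squares with lines are fitted values with 95% intervals, filled where the adjusted p is under 0.05, and coloured points are single series. Filled squares lie left of 0 for *cbd-1*, *chs-1*, *egg-1*, *egg-2* and *perm-2* in the first panel and right of 0 for *cpg-1*, *cpg-2* and *egg-3* in the second, and there are none in the third.

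On the CC day *egg-3*, *cpg-2* and *cpg-1* were higher than on the WC day, and no member was lower (31.2% of probe sets called, 16.1% upward and 15.1% downward). The share of the 9 genes called is near that of the array. *egg-3* rose from day means of -0.43, -0.17 and -0.20 in series 3, 4 and 6 to 0.51, 0.13 and 0.28, by 0.57 ± 0.13 (adjusted p = 0.0012). *cpg-2* rose from -0.14, -0.05 and -0.13 to 0.22, 0.05 and 0.22, by 0.27 ± 0.07 (adjusted p = 0.00383), and its second probe set gave 0.26 ± 0.07. *cpg-1* rose by 0.22 ± 0.08 (adjusted p = 0.0431), a call that its second probe set did not share (0.15 ± 0.08, adjusted p = 0.158) and that was lost when any 1 of the 3 series was left out. *chs-1* gave -0.21 ± 0.09 (adjusted p = 0.095), and *egg-1*, *egg-2*, *cbd-1* and *perm-2* lay between -0.11 and 0.06. No call was left without series 3, where *egg-3* gave 0.39 (adjusted p = 0.117) and *cpg-2* 0.23 (adjusted p = 0.0723), and *cpg-2* also missed the threshold without series 6 (0.23, adjusted p = 0.12). Other lists moved in the same comparison. Sperm genes fell in 4 of 4 cases (median -3.01), led by *msp-3* (-4.33), and muscle genes in 4 of 5, led by *mlc-3* (-0.77) and *myo-3* (-2.32). Of 8 oocyte genes *cav-1* (1.31) and *puf-5* (0.47) rose, and of 9 zygotic embryo genes 3 rose, led by *tbx-37* (4.79), while *end-1* fell (-0.81). The mean score of the sperm list ran from -0.02 to 0.96 over the WC days and from -1.36 to -0.54 over the CC days, and its part in the eggshell values was not tested.

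The WC day includes hours at 25°C and the CC day none, so the comparison was repeated at hours 14 to 22, when both days were at 15°C. None of the 9 genes then passed, where 12.6% of probe sets did (5.25% upward and 7.32% downward). *egg-3* kept nearly its whole difference, 0.52 ± 0.23 (95% interval 0.02 to 1.02, adjusted p = 0.166), and was higher on the CC day by 0.93, 0.29 and 0.34 in the 3 series. *cpg-2* gave 0.16 ± 0.09 and *cpg-1* -0.01 ± 0.10. This fit held 18 arrays in place of 36. The difference between the day comparisons of the 2 experiments was not tested.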

How the data were processed

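Each Affymetrix array received total RNA of whole adults. The authors summarised probes to log2 values by GCRMA (R 2.7.1), took them relative to the mean of a time series and set each array to mean 0 and variance 1, so the deposited values are scores. Annotation of the array, with current names of WBcel235, gave the gene symbols. The members, the lists and the tests were chosen with earlier results of these data known. Linear dependence between arrays showed which were centred together and their relative spread. It found no set for WC series 2.

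Linear models (limma 3.58.1, R 4.3.3) were run separately for each condition. The time series, which is the replicate number of the labels and marks 1 experiment, entered as a term. Half-day contrasts, a 24-h moderated F test, differences of contrasts and day differences were adjusted by Benjamini-Hochberg over all probe sets of the fit and called under 0.05. Probe sets within 0.1 (root mean square) of the floor of an array, the median of its densest 5% of scores, were left out, as were 77 array controls. Because scores are relative to a series mean, this filter can drop steady probe sets at any expression level. SE and p measure the spread between arrays. A gene is represented by the probe set with no _s_ or _x_ in its ID, then the first by ID. All members are named. Of other lists, up to 3 genes with the lowest adjusted p are named, with any that goes against its list, and the 10 genes most like the members. Alternatives were no series term, no or a stricter floor filter, other array scalings, no pooled arrays, the mean over probe sets of a gene, and leaving out each series. The scripts were tested on simulated data. Depth has no counterpart on arrays, whose number limits the precision. The control array of series 6 at hour 6 was not analysed here. Python 3.11.15, numpy 2.4.6, pandas 2.3.3 and matplotlib 3.10.9 were used.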

Additional observations from a re-analysis of the deposited data

Results flagged for a closer look

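In WC, where 5 series give 5 arrays an hour, 10 of 54 sets of 5 scores had an array far from the other 4 (gap over range above Dixon's critical value). Chance gives about 1 in 20, and sets of 1 hour share arrays. Series 2 held 5 of the 10: *cpg-1* at hour 2 (0.41, the others -0.65 to -0.46), *cpg-2* at hour 22 (-0.49, the others 0.05 to 0.22), *cbd-1* at hour 14 (0.74, the others -0.02 to 0.05) and at hour 18 (-0.14, the others 0.06 to 0.11), and *perm-4* at hour 14 (1.59, the others -0.34 to 0.14). Series 1 held 3: *cbd-1* (0.90, the others -0.17 to 0.11) and *chs-1* (0.67, the others -0.12 to 0.09) at hour 6, and *perm-4* at hour 22 (0.29, the others -0.28 to -0.11). Series 4 held *egg-2* (1.11, the others -0.19 to 0.07) and *egg-3* (0.59, the others -0.36 to -0.14), both at hour 14. The cause was not tested.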

How the results depend on the processing

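The count of eggshell genes called was recomputed for all 18 comparisons under each alternative, 259 values in all, of which 250 stayed within 1.5 times the reported count. In 16 of the comparisons the reported count was 0, so most of the 250 are counts that stayed at 0. For DD minus LD the count stayed in 9 alternatives and changed in 3. For CC minus WC it stayed in 10 and changed in 3. Without a term for the time series (no replicate block), the pairing of days by series was dropped and the counts were still 5 for DD minus LD, 3 for CC minus WC and 0 for the other 16 comparisons. A stricter floor filter (0.3) gave 2 for DD minus LD, where it removed *cbd-1* and *perm-2* before testing and *egg-1* missed the threshold (adjusted p = 0.0521). It gave 1 for CC minus WC, where it removed *cpg-1* and *cpg-2*. These genes were removed because their scores moved little, which says nothing of their expression level. Without a floor filter 1 gene was called in CC, *chs-1* (-0.38, adjusted p = 0.0437), beside 28.3% of all probe sets. Leaving out 1 series at a time gave 0 to 2 genes for the LD half-days, the WC half-days, DD minus LD and CC minus WC, and 0 for the other comparisons. The share of all probe sets called moved too, from 0.0125% to 17.2% for the LD half-days and from 0.415% to 9.92% for the WC half-days. The calls were lost without series 4 for DD minus LD and without series 3 for CC minus WC, in fits with fewer arrays. *egg-1* in DD minus LD also missed the threshold without pooled arrays (adjusted p = 0.128), with median and MAD scaling (0.123), with quantile normalization (0.0732) and with array spread restored (0.0583, an alternative chosen after seeing the data). *cbd-1* missed it as the mean of its probe sets (0.0688), and *cpg-1* in CC minus WC without pooled arrays (0.0692) and as a mean of probe sets (0.0715). Of 2252 single-gene values no call changed sign, while 81 values that were not called did. The number of series, 2 to 5 a condition, limits the precision throughout.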
